A study of Homo sapiens with 6 samples.

Results

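The collagen genes of MIA PaCa-2, a long-established line of human pancreatic cancer cells, were measured by RNA-seq with and without rhCYGB, recombinant human cytoglobin, a heme protein. All genes whose symbol has the form of a collagen chain (COL, a type number, A and a chain number) were taken as members, which gave 44 of the 35993 genes listed, covering 28 collagen types. Both groups had 3 libraries and came from cells kept in DMEM containing horse serum (2.5%) and heat-inactivated FBS (10%), seeded for 24 h and then moved to DMEM with 1% FBS. The rhCYGB group received 4 µM of the protein, which carries a 6His tag and was made in E. coli, for 48 h. The untreated group received none, and the sources used here name no vehicle or control protein for it. A single cell line was used. The study speaks of independent experiments in general, but neither the labels nor the methods tie each RNA-seq library to a culture of its own, so p-values measure the spread between these libraries, which may be technical.

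Collagens are the main structural proteins of the extracellular matrix. Each gene encodes a chain, and chains of 1 type coil around each other in the endoplasmic reticulum before the molecule is secreted. Fibrillar collagens (types I, II, III, V, XI, XXIV and XXVII) assemble into the fibres that fill the scar-like stroma of pancreatic cancer, where stellate cells and fibroblasts are known as the main producers. Type IV collagen forms the sheet-like network of basement membranes under epithelia and around vessels. The remaining types decorate fibrils, form microfilaments or anchoring structures, or span the cell membrane.

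Read counts on genes summed to between 34838399 and 42271299 per library. Levels within a gene are given as CPM, the count relative to the library size after scaling by edgeR's TMM factors, and levels between genes as the authors' FPKM, which is per transcript length. Fold changes are log2 values of rhCYGB minus untreated from edgeR's quasi-likelihood test over the 14728 genes with enough counts, with Benjamini-Hochberg adjustment over all of them. A gene was called higher or lower at an adjusted p under 0.05. The libraries fell clearly by group, with correlations of log2 CPM of at least 0.995 within a group and at most 0.941 between groups. The label of the cells was checked against markers. The keratins KRT8 and KRT18 and the mesenchymal filament VIM were abundant, while the epithelial genes EPCAM and CDH1 had at most 2 counts in any library. Of 9 stellate cell or fibroblast markers, DCN, LUM, FAP and POSTN had 0 counts in every library and 4 others stayed under 10 counts. Their summed level was 5.49 to 6.03 CPM in untreated and 5.17 to 5.59 CPM in rhCYGB libraries, nearly all of it from ACTA2.

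Collagen transcripts were mostly lower after rhCYGB. Of the 44 members, 27 had any count and 18 had enough counts for the test. All 18 were called, 15 of them lower and 3 higher, against 38.6% of all tested genes called lower and 39.0% called higher. A fall of 2-fold or more was called for 7 members, against 14.7% of all tested genes, and a rise of that size for 0 members, against 12.4%. The median log2 fold change of the tested members was -0.76, and over all tested genes it was -0.0046. Markers of other cell types were looked at beside these falls. PECAM1 and KDR, which define endothelial cells, had 0 counts and VWF at most 8, while CDH5 carried the summed endothelial level of 109 to 122 CPM in untreated and 10.5 to 13.6 CPM in rhCYGB libraries. The leukocyte markers PTPRC and CD3E had 0 counts, while CD68 was at 34.2 to 38.0 and 70.3 to 72.4 CPM, and 4 of 5 acinar markers had 0 counts. In these bulk samples, fewer cells making a transcript and less transcript per cell cannot be told apart.

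**Figure D1:**
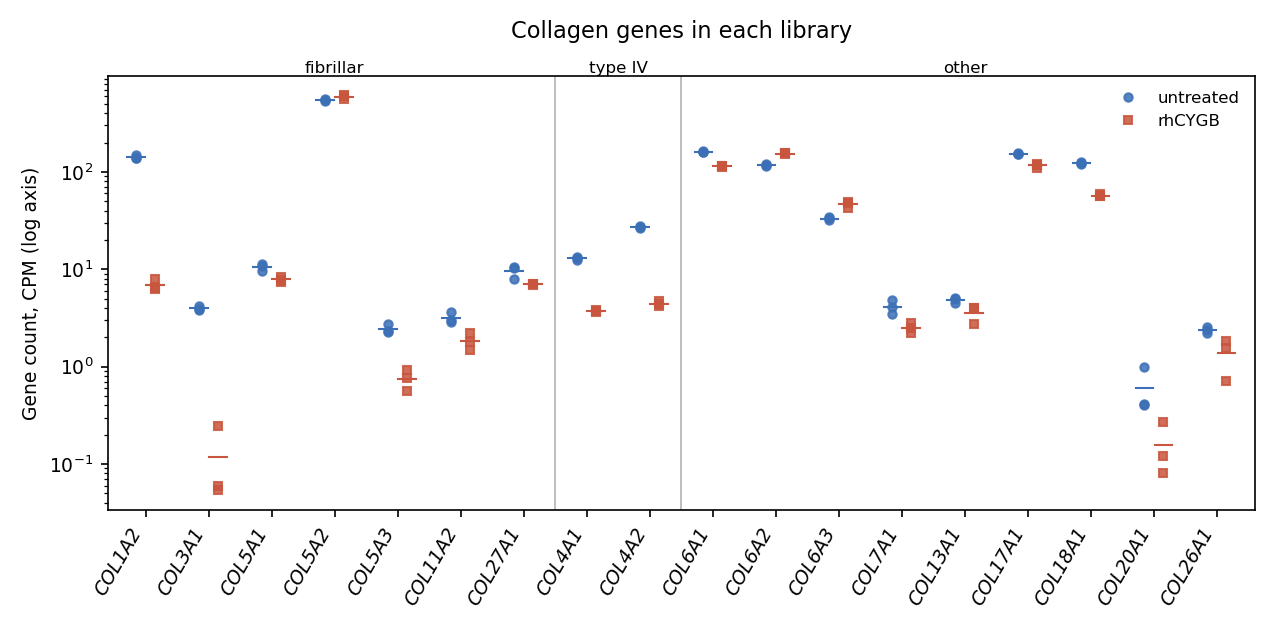
Level of each of the 18 tested collagen genes in each library, in CPM on a log axis, with circles for untreated and squares for rhCYGB libraries and a line at each group mean. COL1A2 and COL3A1 show the widest gaps between groups, COL5A2 is the highest gene and its groups overlap, and COL6A2 and COL6A3 lie higher in every rhCYGB library.

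The levels were concentrated in few genes. By FPKM, COL5A2, a chain of type V collagen, which nucleates and limits the width of type I fibrils, stood highest in untreated cells at 75.1 ± 2.74 (SD, n = 3). COL6A1 at 35.5 ± 0.765 FPKM and COL6A2 at 32.3 ± 0.771 FPKM followed, both chains of type VI collagen, which forms beaded microfilaments around cells. COL1A2 at 26.1 ± 1.31 FPKM and COL17A1 at 25.4 ± 0.215 FPKM came next and overlapped each other between libraries. COL18A1, the source of the fragment endostatin, was at 21.2 ± 0.488 FPKM. These 6 genes held 93.2% of the FPKM of all collagens in untreated and 94.7% in rhCYGB cells. The make-up differed between the groups, since COL1A2 took 11.3% of the collagen FPKM in untreated cells and 0.668% after rhCYGB, while COL5A2 took 32.5% and 42.7% and COL6A2 took 14.0% and 22.4%.

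Fibrillar collagens were compared first. Of 11 members, COL2A1, COL11A1 and COL24A1 were undetected, with 0 counts in all 6 libraries, and COL1A1 had too few counts for the test. Of the 7 tested, 6 were lower and 1 was higher, with a median log2 fold change of -0.78. Over all tested genes, 38.6% were lower and 39.0% higher. The steepest falls of all tested collagens, those of COL3A1 and COL1A2, were in this class.

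Type I collagen, the most abundant collagen of the body, is usually built from more COL1A1 than COL1A2 chains. COL1A2 (chromosome 7, 94024207 to 94060539 in the deposited coordinates, whose build is not named) had 5188, 6191 and 6082 counts in untreated and 232, 213 and 292 in rhCYGB libraries. Every rhCYGB library lay far under every untreated library. The mean was 142 ± 6.05 CPM in untreated and 6.86 ± 0.925 CPM in rhCYGB cells, which is 20.7-fold lower (log2 fold change -4.37, SE 0.072, adjusted p = 4.01e-16, edgeR). Ranked from the steepest fall, COL1A2 was number 43 and COL3A1 number 33 of the 14728 tested genes. COL1A1 (chromosome 17, 48261457 to 48279000) had 6, 10 and 6 counts in untreated and 0, 0 and 0 counts in rhCYGB libraries. It was therefore nearly absent in both groups, and with a floor of 3 counts per library it was at least 2.11-fold lower after rhCYGB. COL1A2 exceeded COL1A1 in untreated libraries by an FPKM ratio of 1034, 801 and 1352, so that the chain genes of type I collagen were present at very unequal levels.

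COL3A1, the single chain of type III collagen, which is known from healing wounds and early scars, had 146, 190 and 155 counts in untreated and 2, 2 and 9 counts in rhCYGB libraries. The groups did not overlap, and rhCYGB library 3 held most of the counts left after treatment. The level fell from 3.99 ± 0.227 to 0.119 ± 0.108 CPM (log2 fold change -5.01, SE 0.345, adjusted p = 2.72e-09, edgeR), and without rhCYGB library 3 the log2 fold change was -6.05. COL3A1 lies on chromosome 2 at 189839099 to 189877472, only 19151 bases from COL5A2 (189896624 to 190044487). The neighbours moved differently, as COL5A2 had 19926, 24646 and 23102 counts in untreated and 20837, 19798 and 22448 in rhCYGB libraries. For COL5A2 the groups overlapped, and the level of 550 ± 15.8 CPM against 588 ± 24.7 CPM gave a log2 fold change of 0.10 (SE 0.039, adjusted p = 0.035, edgeR). That rise did not hold, since it turned to between -0.045 and -0.069 with upper-quartile factors, total counts or either fit on FPKM and missed the threshold in these fits. The call was also lost with DESeq2 size factors, without the low-count filter, with at least 10 counts required in every library, and on leaving out untreated library 1 or 2 or rhCYGB library 2 or 3, with adjusted p between 0.059 and 0.15 (edgeR).

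The other chains of type V collagen were lower. COL5A3, on chromosome 19 at 10070237 to 10121180, had 84, 123 and 95 counts in untreated and 21, 31 and 28 in rhCYGB libraries. Its groups stood well apart, at 2.44 ± 0.264 and 0.752 ± 0.183 CPM (log2 fold change -1.70, SE 0.246, adjusted p = 1.36e-05, edgeR). COL5A1, the chain found in nearly all type V molecules, fell less, from between 404 and 463 counts to between 274 and 289, with a log2 fold change of -0.43. The FPKM ratio of COL5A2 to COL5A1 was 64.5 ± 5.33 in untreated and 92.8 ± 7.73 in rhCYGB cells. COL11A2, a chain of type XI collagen of cartilage, had a log2 fold change of -0.78 and between 49 and 134 counts. COL27A1, also known from cartilage, had a log2 fold change of -0.45 and between 234 and 422 counts.

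**Figure D2:**
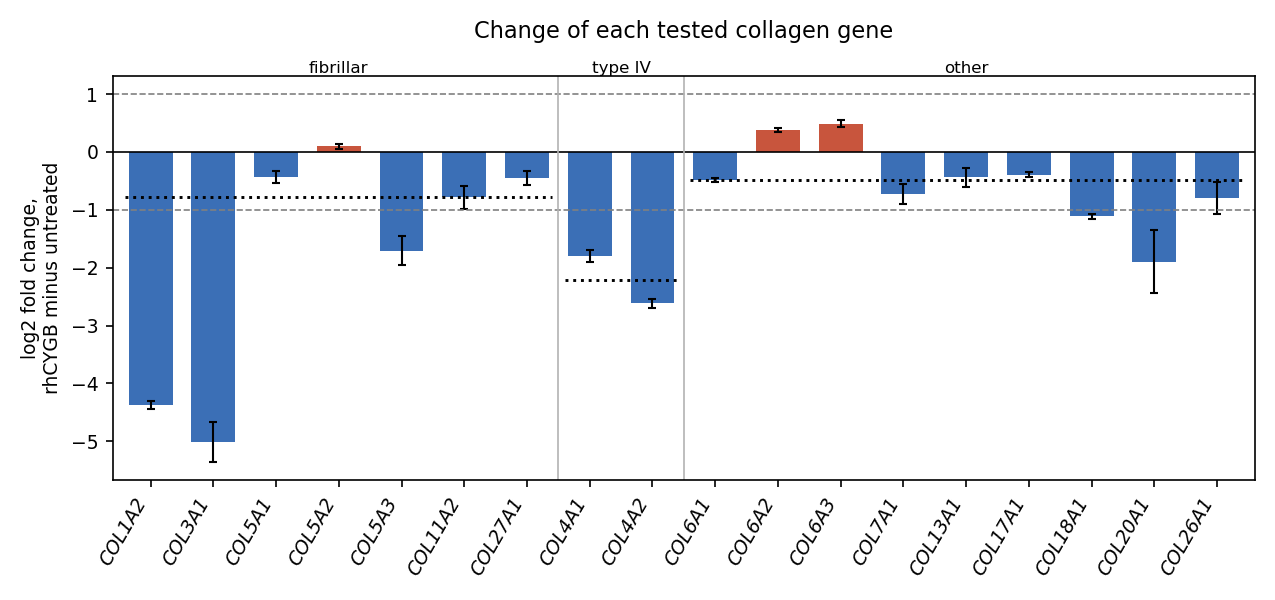
Log2 fold change (rhCYGB minus untreated) of each tested collagen gene by class, with bars for the estimate, error bars for ±1 SE, dashed lines at 2-fold, dotted lines at the class medians, and blue for genes called lower and red for genes called higher. COL3A1 at -5.01 and COL1A2 at -4.37 reach furthest down, both type IV genes pass 2-fold, and the highest bar is COL6A3 at 0.49.

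Basement membrane collagen of type IV has 6 chain genes arranged in pairs that start back to back. The pair COL4A1 and COL4A2 encodes the form found in nearly all basement membranes, and it was the pair expressed here. COL4A3, COL4A5 and COL4A6 were undetected, and COL4A4 had 5, 14 and 6 counts in untreated and 0, 0 and 6 in rhCYGB libraries, under the filter. Both tested genes were lower by more than 2-fold, with a median of -2.20, while 14.7% of all tested genes were lower by 2-fold or more. COL4A1 (chromosome 13, 110801310 to 110959504) had 495, 559 and 532 counts in untreated and 137, 127 and 135 in rhCYGB libraries. COL4A2 (chromosome 13, 110959631 to 111165556) had 980, 1243 and 1117 counts in untreated and 164, 138 and 174 in rhCYGB libraries. In each case the rhCYGB libraries lay close together and far under the untreated ones. COL4A1 fell from 12.9 ± 0.418 to 3.72 ± 0.083 CPM (log2 fold change -1.80, SE 0.101, adjusted p = 2.30e-10, edgeR). COL4A2 fell from 27.1 ± 0.746 to 4.43 ± 0.286 CPM (log2 fold change -2.61, SE 0.081, adjusted p = 2.46e-13, edgeR). The chains did not fall by the same amount, and the FPKM ratio of COL4A2 to COL4A1 went from 2.13 ± 0.12 to 1.20 ± 0.082, with no overlap between groups. No test was run on chain ratios, and a permutation of 3 against 3 libraries could not give a two-sided p under 0.1.

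COL4A1 and COL4A2 are separated by 126 bases in the deposited coordinates, and the RefSeq starts of the genes in GRCh38.p14 are also separated by 126 bases. This interval is the stretch from which transcription of both falling genes starts in opposite directions, so its sequence is given on the strand of COL4A2 (chr13:110307158-110307283, plus strand), with a CCAAT box (CCAAT or ATTGG) and a GC box (GGGCGG or CCGCCC), the letters known to be bound by NF-Y and SP1, in capitals.
COL4A1-COL4A2: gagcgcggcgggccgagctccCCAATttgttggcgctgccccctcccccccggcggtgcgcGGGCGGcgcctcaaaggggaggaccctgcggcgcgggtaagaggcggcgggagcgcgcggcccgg
The interval held 1 match to each of these motifs and 0 to TATAAA on either strand. Of the 35116 RefSeq promoter windows, 21.1% held a CCAAT box and 34.6% a GC box within the 126 bases before the start, so neither is rare. The motifs searched do not overlap each other here, and a match is a description of the letters only.

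With the other basement membrane and epithelial anchoring types (VII, XV, XVII and XVIII) added to type IV, 10 members were counted. Of these, 5 were tested and all 5 were lower, 3 of them by 2-fold or more, with a median of -1.11. Over all tested genes, 38.6% were lower and 14.7% lower by 2-fold or more. COL18A1 on chromosome 21 (46825080 to 46933634), a basement membrane collagen carrying heparan sulfate, had 4730, 5399 and 5027 counts in untreated and 2087, 1861 and 2177 in rhCYGB libraries. It was lower in every rhCYGB library, at 57.1 ± 1.73 against 124 ± 3.26 CPM (log2 fold change -1.11, SE 0.042, adjusted p = 2.36e-12, edgeR). Its transcript that begins at the upstream start held 97.9% of the gene's counts in untreated and 94.4% in rhCYGB libraries. The span overlaps 2 antisense genes and SLC19A1 in the deposited table, and since the strand setting of the counting is not stated, part of its counts is uncertain. COL7A1, the anchoring fibril collagen of skin, had a log2 fold change of -0.73 with 179, 183 and 143 counts in untreated and 104, 82 and 81 in rhCYGB libraries. COL17A1, a membrane-spanning collagen of hemidesmosomes, went from 153 ± 2.27 to 117 ± 5.25 CPM (log2 fold change -0.39, SE 0.041, adjusted p = 3.37e-07, edgeR). COL15A1 was undetected.

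**Figure D3:**
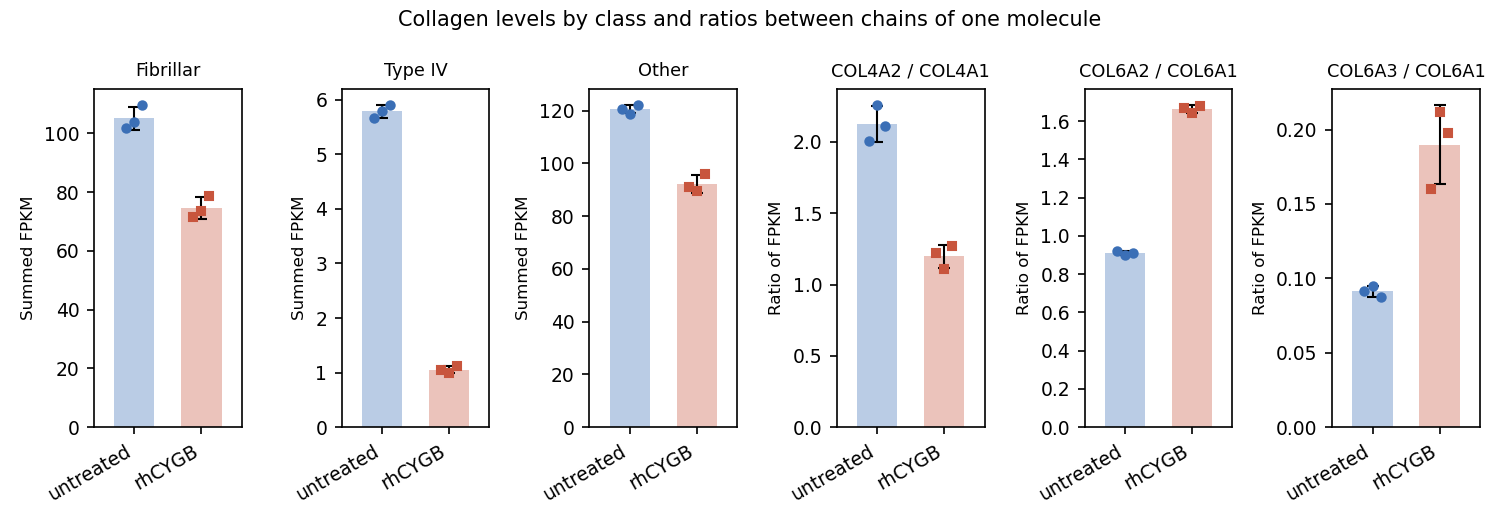
Summed FPKM of fibrillar, type IV and other collagens and FPKM ratios between chains of types IV and VI, with bars for group means, error bars for SD (n = 3) and points for libraries. All 6 panels show groups that do not overlap, with type IV at 5.79 against 1.05 FPKM and COL6A2 to COL6A1 at 0.912 against 1.66.

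Summed by class, the FPKM of fibrillar collagens was 105 ± 4.03 in untreated and 74.7 ± 3.76 in rhCYGB cells, that of type IV collagens 5.79 ± 0.115 and 1.05 ± 0.067, and that of all others 121 ± 1.59 and 92.2 ± 3.31. Each sum was lower in every rhCYGB library, and the type IV sum had the largest proportional difference of the 3. Most of the fibrillar sum was COL5A2, at 75.1 ± 2.74 FPKM in untreated and 71.7 ± 3.53 FPKM in rhCYGB cells. Most of the fall of that sum was in COL1A2, which went from 26.1 ± 1.31 to 1.12 ± 0.171 FPKM. In the fit on log2(FPKM + 0.1) the median of all genes also lay at -0.15, a shift that these sums contain.

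Of the other 27 members, 11 were undetected, 7 stayed under the filter and 9 were tested. Among those tested, 7 were lower and 2 higher, beside 38.6% and 39.0% of all tested genes. The median log2 fold change of the 9 was -0.49. Type VI collagen held both genes that were called higher in the main test and in each of the 16 alternatives run. COL6A2 had 4430, 5178 and 4940 counts in untreated and 5741, 5020 and 5731 in rhCYGB libraries, and relative to library size each rhCYGB library was higher. The level was 119 ± 2.82 against 154 ± 2.42 CPM (log2 fold change 0.37, SE 0.037, adjusted p = 2.00e-07, edgeR). COL6A3, the long chain whose tail yields endotrophin, had 1272, 1429 and 1369 counts in untreated and 1588, 1626 and 1783 in rhCYGB libraries, again higher in each (33.2 ± 1.17 against 46.7 ± 3.40 CPM, log2 fold change 0.49, SE 0.059, adjusted p = 1.90e-06, edgeR). COL6A1 went the other way, with 5915, 7109 and 6628 counts in untreated and 4254, 3769 and 4239 in rhCYGB libraries (160 ± 2.21 against 114 ± 0.877 CPM, log2 fold change -0.49, SE 0.036, adjusted p = 5.77e-09, edgeR). A type VI molecule takes 1 chain of each of these genes. The FPKM ratio of COL6A2 to COL6A1 went from 0.912 ± 0.0095 to 1.66 ± 0.020 and that of COL6A3 to COL6A1 from 0.0913 ± 0.0037 to 0.190 ± 0.027, without overlap. FPKM is per transcript length, and COL6A3 counts were assigned to transcripts of differing length between libraries, so its ratio is less certain. COL6A1 and COL6A2 are neighbours on chromosome 21, 93063 bases apart. COL6A5 and COL6A6, the chains that can stand in for COL6A3, were undetected.

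The RefSeq promoter table held 32 of the 44 members and 13 of the 18 tested. COL1A2, COL3A1, COL5A2, COL6A1 and COL20A1 had no entry. The 100 bases before the start are given for genes that were called 2-fold lower (COL5A3, chr19:10010505-10010604, minus strand; COL18A1 at its upstream start, chr21:45405065-45405164, plus strand) and for the genes called higher (COL6A2, chr21:46098012-46098111, plus strand; COL6A3, chr2:237414165-237414264, minus strand), so that sequences of genes moving in opposite directions can be compared, with GC boxes in capitals on either strand and each read toward its gene.
COL5A3: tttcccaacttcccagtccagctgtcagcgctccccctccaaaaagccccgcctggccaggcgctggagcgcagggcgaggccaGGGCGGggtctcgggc
COL18A1: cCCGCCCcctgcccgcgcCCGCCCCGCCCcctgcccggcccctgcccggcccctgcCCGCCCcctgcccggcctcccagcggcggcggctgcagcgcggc
COL6A2: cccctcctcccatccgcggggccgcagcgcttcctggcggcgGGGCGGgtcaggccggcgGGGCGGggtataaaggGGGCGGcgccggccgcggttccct
COL6A3: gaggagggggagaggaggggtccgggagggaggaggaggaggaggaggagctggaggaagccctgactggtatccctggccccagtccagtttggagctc
COL18A1 held 4 GC boxes, 2 of them sharing a base, COL6A2 held 3 and a TATA box (TATAAA or TTTATA), COL5A3 held 1, and COL6A3 held 0. Transcripts of COL6A3 begin at 238322850 or 238322807 in the deposited coordinates, while its window lies before a single RefSeq start. A GC box was present in 31.3% and a TATA box in 4.99% of all promoter windows of this length. Over the 250 bases before the start, 12 of the 18 windows of tested collagens held a GC box, against 7 of 18 windows of undetected collagens and 42.6% of all windows. For the CCAAT box these values were 5, 6 and 32%, and for the TATA box 5, 3 and 10.7%. Several genes have more than 1 window and some windows overlap, so these are counts of windows and not of independent genes.

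The fibril-associated collagens sit on the surface of fibrils. Of 10 members, COL9A1, COL9A3, COL14A1, COL19A1, COL21A1 and COL22A1 were undetected, and COL9A2 (at most 18 counts), COL12A1 (at most 9) and COL16A1 (at most 6) stayed under the filter. COL20A1 alone was tested, with 37, 18 and 17 counts in untreated and 10, 4 and 3 in rhCYGB libraries (log2 fold change -1.89, SE 0.549, adjusted p = 0.0055, edgeR). It was lower in every rhCYGB library, but without untreated library 1 its log2 fold change was -1.36 and its adjusted p 0.056 (edgeR), and without rhCYGB library 1 the log2 fold change was -2.53. Among membrane-spanning collagens besides COL17A1, COL13A1 had 167, 226 and 204 counts in untreated and 101, 133 and 148 in rhCYGB libraries, a log2 fold change of -0.44. Its call was lost on leaving out untreated library 2, untreated library 3 or rhCYGB library 1, with adjusted p of 0.077, 0.068 and 0.11 (edgeR). COL23A1 and COL25A1 had at most 2 and 7 counts. The network-forming short chains COL8A1 and COL10A1 were undetected, and COL8A2 had at most 4 counts.

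COL26A1, first known from testis and ovary, had 94, 107 and 91 counts in untreated and 68, 52 and 26 in rhCYGB libraries (log2 fold change -0.80). The groups did not overlap, and rhCYGB library 3 was the lowest. The call was lost without untreated library 1 (log2 fold change -0.76, adjusted p = 0.051, edgeR) or without rhCYGB library 3 (-0.48, adjusted p = 0.054). Its counts were assigned to 2 transcripts, 1 of which had 66, 107 and 22 counts in untreated and 0 in every rhCYGB library. Assignment to transcripts varied strongly between libraries of a group, so transcript values are not compared further. For COL6A3, the transcript with most counts in untreated libraries (73.3% on average) had 1433, 91 and 0 counts in the rhCYGB libraries. Another transcript held 62.2% on average there. COL28A1 had at most 4 counts.

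In all, 17 collagen genes were undetected. A count of 0 allows up to 3 counts per library, which is 0.0669 to 0.0902 CPM, and this limit covers counting error only. A further 9 members had counts but no test, with no more than 18 in any library. Among these, COL1A1 alone had groups that did not overlap. Of the 15 members called lower, the 8 under 2-fold had log2 fold changes between -0.80 and -0.39.

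The genes that make, move, cross-link, bind and degrade collagen were then examined in 5 lists with 64 genes. These lists were chosen with earlier results of these data known, so their counts are a description only. Of these, 49 were tested, 9 were higher and 31 lower, beside 39.0% and 38.6% of all tested genes, and their median log2 fold change was -0.43. Hydroxylation and folding in the endoplasmic reticulum had 17 tested genes, of which 14 were lower and 1 higher, where 38.6% and 39.0% of all tested genes were called. The steepest falls were of P3H1, which hydroxylates prolines (89.5 ± 1.73 to 22.8 ± 1.41 CPM, log2 fold change -1.98), P3H4, a partner of lysyl hydroxylase (-1.96), and PLOD2, which hydroxylates lysines used for cross-links (-1.40). P4HA2, a prolyl hydroxylase subunit, was the gene that rose (25.2 ± 2.18 to 31.2 ± 2.49 CPM, log2 fold change 0.31). P4HA1, its counterpart, fell by 0.45 and P4HB, the shared subunit, fell by 0.47 on the log2 scale. SERPINH1, the collagen chaperone HSP47, was at 172 ± 0.296 and 142 ± 4.28 CPM, a log2 fold change of -0.27.

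Export of collagen from the endoplasmic reticulum had 5 genes higher, 5 lower and 2 not called among 12 tested, a split close to the 39.0% higher and 38.6% lower of all tested genes. MIA2, whose products help load bulky cargo at exit sites, rose from 19.9 ± 0.606 to 151 ± 2.40 CPM (log2 fold change 2.92, SE 0.045, adjusted p = 2.64e-16, edgeR) and lay in the opposite direction to most collagens. TFG and SEC24D, parts of exit sites and their vesicle coat, followed with log2 fold changes of 0.83 and 0.57. The steepest falls were of CUL3 (-1.14), SAR1B (-0.43) and KLHL12 (-0.39), of which CUL3 and KLHL12 form the ubiquitin ligase known to enlarge these vesicles.

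Procollagen processing and cross-linking had 8 tested genes, of which 5 were lower, all by 2-fold or more, and 0 higher, while 38.6% of all tested genes were lower, 14.7% by 2-fold or more, and 39.0% higher. The protease gene TLL2 had a log2 fold change of -1.77 with at most 38 counts. TGM2, which cross-links matrix proteins, fell from 433 ± 29.1 to 164 ± 3.90 CPM (log2 fold change -1.40), and PCOLCE2, an enhancer of procollagen cleavage, fell by 1.37 on the log2 scale. LOX, the founding lysyl oxidase, had at most 3 counts in any library. Its relative LOXL2 was abundant and fell from 464 ± 7.90 to 188 ± 9.08 CPM (log2 fold change -1.30). The protease gene BMP1 was also lower (-1.13).

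Among 7 tested collagen receptors, 2 were higher and 4 lower, beside 39.0% and 38.6% of all tested genes. DDR2, a receptor kinase for fibrillar collagen, rose from 90.0 ± 1.85 to 157 ± 5.36 CPM (log2 fold change 0.81), and ITGB1, the shared beta subunit of collagen-binding integrins, by 0.57. The alpha subunits ITGA10 (-1.99) and ITGA2 (-1.76, with at most 42 counts) fell, as did MRC2 (-1.56), which takes up collagen for breakdown. DDR1, the related kinase of epithelial cells, had a log2 fold change of 0.09 and an adjusted p of 0.12 (edgeR). Of 5 tested collagen-degrading proteases, CTSL was higher (0.90), and CTSK (-1.58), MMP14 (-1.03) and PEPD (-0.59) were lower, beside the same shares of all tested genes.

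**Figure D4:**
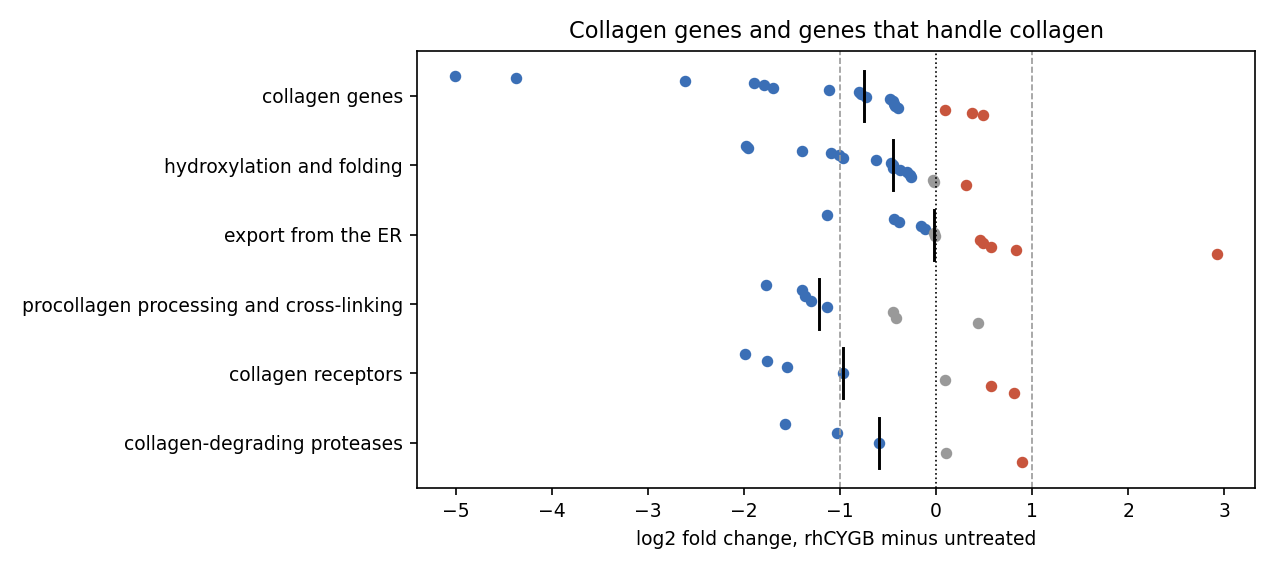
Log2 fold change of each tested collagen gene and of each tested gene in 5 lists of collagen-handling genes, with red for called higher, blue for called lower, grey for not called, black bars at list medians, dashed lines at 2-fold and a dotted line at the median of all genes. The collagens (median -0.76) and the processing genes (median -1.22) lie mostly to the left, and the export genes (median -0.022) lie on both sides, with MIA2 at 2.92.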

How the data were processed

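Libraries were made from RNA of MIA PaCa-2 cells with a stranded mRNA kit, 3 untreated and 3 rhCYGB. The submitters' processing notes name FastQC 0.11.7, HISAT2 2.1.0 and StringTie 2.1.3b, and as genome build mm10, a mouse build, although the genes listed are human. The build of the coordinates is not given in the sources used here. They reach 249231298 on chromosome 1. The authors deposited read counts per gene and per transcript, which are not normalized, and FPKM values, scaled by transcript length and depth. The 18 per-sample columns of TPM and of transcript FPKM were not used.

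The gene counts of the whole table were filtered (filterByExpr), scaled (TMM) and tested by quasi-likelihood without a block in edgeR 4.0.16 under R 4.3.3. A 2-fold call needed an absolute log2 fold change of at least 1. DESeq2 1.42.0 and limma 3.58.1 served as alternatives. The main edgeR fit, the DESeq2 Wald test and limma with a pseudocount of 1 were tested on simulated data, and the other alternatives were not. The simulation changed a small share of genes, as often up as down, and gave limma CPM in place of FPKM. Most tested genes were called in the real data, a setting that the simulation does not cover. A chi-square over degrees of freedom of 4.79 to 6.89 between libraries of a group showed no copied library. Full values were given for members called 2-fold with a mean of at least 100 counts in the higher group, and for COL1A1 and COL3A1. In the lists, the 3 largest rises and 3 largest falls among called genes and SERPINH1, P4HA1, P4HB, PLOD2, LOX and DDR1 were named. LOXL2 and BMP1 were added to these. The members, classes and lists were chosen with earlier results of these data known. Promoter sequences are from RefSeq, GRCh38.p14.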

Additional observations from a re-analysis of the deposited data

How the results depend on the processing

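Each count and class median was refitted with DESeq2 size factors, upper-quartile factors, total counts, the DESeq2 Wald test, fits of limma to log2(FPKM + 1) and to log2(FPKM + 0.1), omission of the low-count filter, at least 10 counts in every library, counts summed from transcripts, the replicate number as a block, and without each library in turn. The collagens called lower stayed between 13 and 16 and those called higher between 2 and 3. The count lower by 2-fold stayed between 6 and 8 except with at least 10 counts in every library, where fewer genes were tested and it was 5, and with limma on log2(FPKM + 1), where it was 3, since the pseudocount shrinks low genes. Medians moved by more than the spread between libraries for type IV collagens with upper-quartile factors (-2.35), total counts (-2.37), log2(FPKM + 1) (-1.30), log2(FPKM + 0.1) (-2.17), no filter (-1.79) and the wider basement membrane class (-1.11), for other collagens with upper-quartile factors (-0.63), total counts (-0.65), log2(FPKM + 1) (-0.35), log2(FPKM + 0.1) (-0.62) and no filter (-0.63), and for fibrillar collagens with log2(FPKM + 1) (-0.29) and no filter (-1.24). Leaving out a library gave medians of -0.61 to -0.41 for other collagens. The value of -0.61, without untreated library 2, also moved by more than the spread between libraries. The scaling alternatives moved the median of all genes to -0.15 (upper-quartile factors), -0.17 (total counts) and -0.15 (log2(FPKM + 0.1)). COL5A2 turned to -0.045, -0.069, -0.068 and -0.069 with upper-quartile factors, total counts, log2(FPKM + 1) and log2(FPKM + 0.1). Without the filter COL1A1 reached an adjusted p of 0.0057 (edgeR). The replicate numbers did not pair the libraries (correlations of deviations of -0.041, 0.037 and 0.021), and with the replicate block 15 collagens were lower and 3 higher, as without it. Depth limits the 17 undetected and 9 untested members, for which no direction is given except for COL1A1.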
